A study of Homo sapiens with 12 samples.

Results

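Temozolomide was compared with its solvent DMSO in U251 cells in which CD44 had been knocked down, using 6 of the 12 libraries of the series. U251 is an established human glioblastoma line, and CD44 is the cell-surface receptor for hyaluronan. The treated libraries were of U251 with the lentiviral shCD44 hairpin given 50 µM temozolomide for 24 h (3 libraries). They were set against U251 with the same shCD44 hairpin given DMSO for 24 h (3 libraries). The remaining 6 libraries carried a control hairpin, 3 with DMSO (titled shCtrl) and 3 with the same temozolomide treatment (titled NC). They serve to show where the knockdown response differed. They also entered the shared fit, and so its scaling, low-count filter and estimate of spread. All 4 groups were grown in high-glucose medium with serum and carried a lentiviral hairpin, and the labels give no cells without one. Both knockdown groups come from 1 cell line, and no second CD44 hairpin is labelled. Separate cultures behind the 3 libraries of each group are not stated, and p-values then describe only how these libraries vary.

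Temozolomide methylates DNA bases. The methyl group it puts on guanine can be removed directly by MGMT. Where it stays, mismatch repair acts on the mispair after replication, and strand breaks, checkpoint signalling through ATR and CHEK1, and p53 can follow. Other methylated bases go through base excision repair. In glioblastoma the drug is given with radiotherapy, and MGMT level and mismatch repair are the best known determinants of sensitivity.

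Poly(A) RNA was sequenced to between 13506946 and 20208663 estimated counts per knockdown library. Levels are given in CPM, counts scaled to one fixed library total after TMM normalization, which aligns libraries on the bulk of their genes. Differences are log2 fold changes of temozolomide over DMSO from edgeR's quasi-likelihood test. A gene is called higher (rose) or lower (fell) when its Benjamini-Hochberg adjusted p is below 0.05 over the 12821 genes tested. The first principal component of the 6 libraries held 35.9% of the variance and separated all 3 temozolomide from all 3 DMSO libraries. CD44 itself had 319.8, 326 and 333 CPM in the temozolomide libraries, against 421, 419 and 419 CPM in the DMSO libraries. In control-hairpin cells it had 851, 808 and 804 CPM with temozolomide, against 1127, 1102 and 1043 CPM with DMSO. Every knockdown library was below every control library, in the direction the labels give. MGMT had 1 count in temozolomide library 2 and 0 counts in the other 5 knockdown libraries. It lay under the 3 counts taken as the detection floor, which equal 0.143 to 0.215 CPM and allow for counting error alone.

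Temozolomide library 1 stood apart from the other 2 temozolomide libraries for interferon-stimulated genes. The median of that list, as log2 against the DMSO mean, was -0.07 in library 1 and -0.62 and -0.55 in libraries 2 and 3. In the DMSO libraries it was -0.03, 0.05 and -0.01. Genes with a GC content above 60% stood 0.08, 0.00 and -0.12 log2 units above those under 40% in the temozolomide libraries, against -0.06, -0.03 and -0.08 in the DMSO libraries. The scaling matters for small changes: with library totals in place of TMM factors, the median log2 fold change over all genes was 0.07 in place of 0.00.

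More genes fell than rose with temozolomide under the main scaling, which library totals and FPKM turn round, and most changes were small. Of 12821 genes tested, 1160 (9.05%) rose and 1694 (13.2%) fell, and the median size of a called change was 0.24 on the log2 scale. At 1.5-fold or more, 64 genes (0.499%) rose and 238 (1.86%) fell. At 2-fold or more the counts were 15 (0.117%) higher and 57 (0.445%) lower. The 3 temozolomide and the 3 DMSO libraries did not overlap for 2240 genes (17.5%) that were higher and 2535 (19.8%) that were lower. The direction of the majority rests on the scaling. With library totals alone 2533 genes rose and 1078 fell, and with limma on log2(FPKM + 1) 1355 rose and 693 fell. RNA was measured over whole cultures, so fewer cells with a transcript and less of it per cell cannot be told apart here.

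Among genes averaging at least 5 CPM in the higher group, and with non-overlapping libraries, the deepest falls were those of KMO, PI15 and CCL2. KMO, which hydroxylates kynurenine in tryptophan breakdown (chr1:241532134-241595642 in GRCh38, plus strand), had 2.45, 1.67 and 2.44 CPM in the temozolomide libraries, against 9.25, 8.97 and 8.64 CPM in the DMSO libraries (log2 fold change -2.05, SE 0.16, adjusted p = 7.69e-09 in edgeR with Benjamini-Hochberg adjustment). All 3 temozolomide libraries lay far below the lowest DMSO library. IGFBP5, a secreted binding protein of insulin-like growth factors (chr2:216672105-216695525, minus strand), was the most abundant of the 12 deepest falls. It had 302, 309 and 321 CPM in the temozolomide libraries, against 738, 805 and 769 CPM in the DMSO libraries (log2 fold change -1.31, SE 0.04, adjusted p = 8.15e-15, edgeR). The 2 groups were far apart relative to the spread within each. CCL2, the chemokine that attracts monocytes, had 11.7, 10.4 and 11.3 CPM in the temozolomide libraries, against 30.8, 31.4 and 29.5 CPM in the DMSO libraries (log2 fold change -1.46, SE 0.10, adjusted p = 9.07e-10, edgeR). IL7R, the receptor chain for interleukin 7, had 22.6, 22.5 and 24.0 CPM in the temozolomide libraries, against 61.6, 50.6 and 55.9 CPM in the DMSO libraries. CDH5, the cadherin of endothelial junctions, had 12.2, 12.5 and 13.1 CPM in the temozolomide libraries, against 28.0, 28.1 and 26.8 CPM in the DMSO libraries. For these 3 genes every temozolomide library lay below every DMSO library, with log2 fold changes of -1.46, -1.28 and -1.14. The other deep falls were PI15, a secreted protease inhibitor (-1.87), IFI44L, an interferon-stimulated gene (-1.23), SLC38A11, an amino acid transporter (-1.20), and RIPOR2, an inhibitor of the GTPase RHOA (-1.20). SOSTDC1, an antagonist of BMP and WNT signals (-1.16), TRIM22, an interferon-stimulated ubiquitin ligase (-1.16), and the copper-carrying ferroxidase CP (-1.12) completed the 12. IFI44L had the widest spread of the 12 among temozolomide libraries, with 25.3, 7.98 and 7.90 CPM in the temozolomide libraries, against 29.8, 36.2 and 30.2 CPM in the DMSO libraries.

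Within the same limits, at least 5 CPM and no overlap, each of the 12 largest rises was smaller in size than each of the 12 deepest falls. Genes below 5 CPM, among them NTRK3 (-1.67) and DLL1 (1.48), are in neither set. REEP1, which shapes the endoplasmic reticulum (chr2:86213993-86338083, minus strand), had 10.4, 8.41 and 9.98 CPM in the temozolomide libraries, against 5.19, 4.67 and 5.44 CPM in the DMSO libraries (log2 fold change 0.90, SE 0.13, adjusted p = 4.03e-05, edgeR). MAP1A, a microtubule-associated protein, had 6.65, 6.45 and 6.46 CPM in the temozolomide libraries, against 3.73, 3.07 and 3.71 CPM in the DMSO libraries (log2 fold change 0.89, SE 0.14, adjusted p = 0.0001, edgeR). SNPH, which holds mitochondria in place on axonal microtubules, had 7.96, 7.69 and 7.32 CPM in the temozolomide libraries, against 3.73, 4.61 and 4.58 CPM in the DMSO libraries. In all 3 genes the lowest temozolomide value exceeded the highest DMSO value. EGR1, an immediate-early transcription factor, had 8.02, 7.36 and 6.46 CPM in the temozolomide libraries, against 4.06, 3.38 and 4.63 CPM in the DMSO libraries (log2 fold change 0.85, SE 0.14, adjusted p = 0.000207, edgeR). DHRS2, a short-chain dehydrogenase, was the most abundant of the 12 and had 34.5, 30.7 and 35.0 CPM in the temozolomide libraries, against 21.3, 20.7 and 19.4 CPM in the DMSO libraries (log2 fold change 0.71, SE 0.07, adjusted p = 1.93e-07, edgeR). The others were the orphan receptor GPR153 (0.80), the membrane metalloproteinase MMP15 (0.80), NATD1 (0.76), the thioredoxin inhibitor TXNIP (0.75), PLCXD2 (0.75), the kinase TESK2 (0.74) and the protocadherin PCDH10 (0.72). PLCXD2 lost its edgeR call in knockdown cells without temozolomide library 2 (adjusted p = 0.0753). PCDH10 was not called with limma on log2(FPKM + 0.1) (log2 fold change 0.68, adjusted p = 0.0522).

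**Figure D1:**
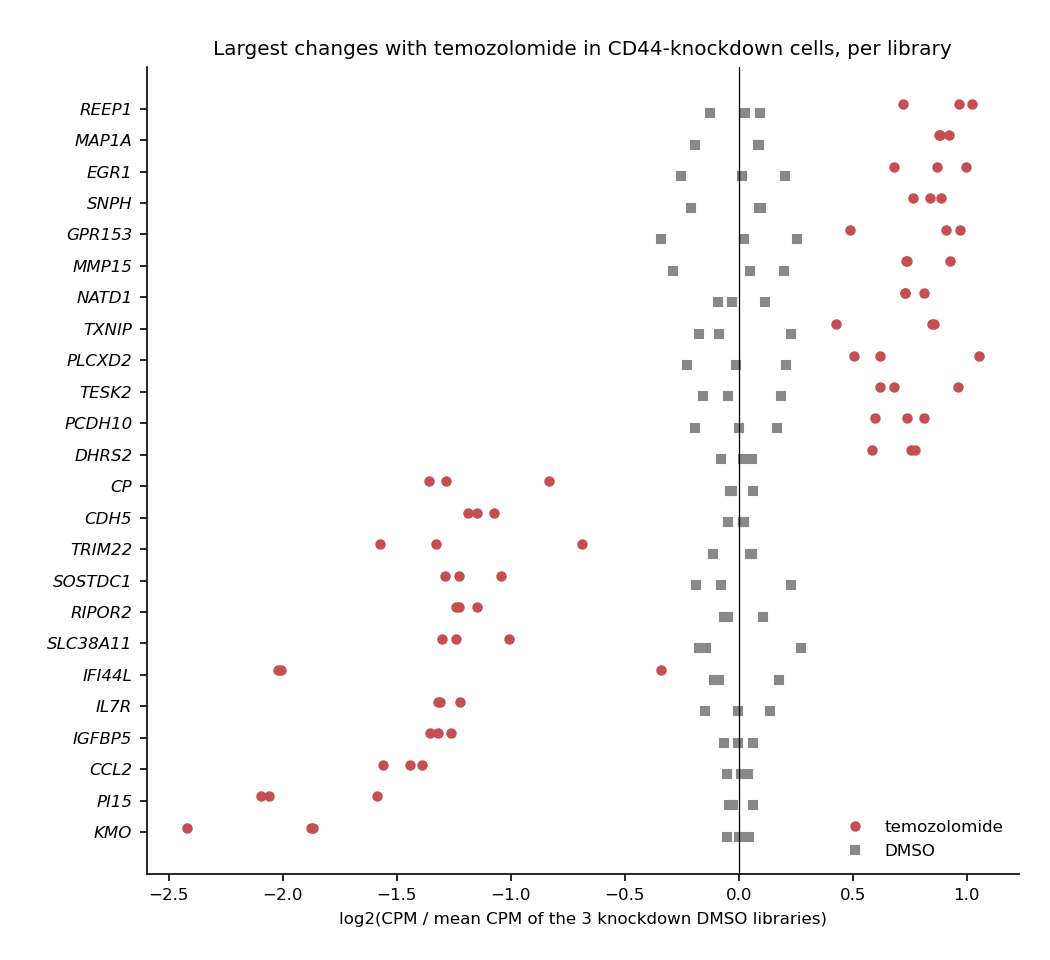
Each row is 1 of the 12 largest rises or 12 deepest falls among genes of at least 5 CPM, and each point is 1 knockdown library, as log2 of its CPM over the mean of the 3 knockdown DMSO libraries (circles, temozolomide; squares, DMSO). Every circle lies outside the range of the squares of its gene, and the temozolomide libraries of IFI44L are the most spread, with library 1 at 25.3 CPM and libraries 2 and 3 at 7.98 and 7.90 CPM.

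Among p53 targets more genes rose than fell, by small amounts. Of 36 tested members, 4 fell (11.1%), 8 rose (22.2%) and 24 did not pass the test, beside 13.2% lower and 9.05% higher over all genes. The median log2 fold change was 0.05, against 0.00 over all genes. Those that rose were FDXR, a mitochondrial reductase (0.32), SESN1, which inhibits TOR signalling (0.28), TP53INP1 (0.26), XPC, which recognises damage for nucleotide excision repair (0.24), FUCA1 (0.23), RRM2B, the p53-inducible subunit of ribonucleotide reductase (0.22), POLH, a polymerase that copies past lesions (0.22), and CDKN1A. CDKN1A, which encodes the p21 inhibitor of cyclin-dependent kinases, had 36.0, 33.0 and 35.6 CPM in the temozolomide libraries, against 32.7, 29.9 and 29.6 CPM in the DMSO libraries (log2 fold change 0.18, SE 0.06, adjusted p = 0.0342, edgeR). The groups did not overlap, but the call was lost with DESeq2, with no filter and without any 1 of DMSO libraries 2 and 3 and temozolomide libraries 1 and 3. MDM2, the ubiquitin ligase of p53, had 171, 178 and 181 CPM in the temozolomide libraries, against 177, 168 and 181 CPM in the DMSO libraries (adjusted p = 0.875, edgeR). GDF15, a secreted stress cytokine, had 19.5, 16.5 and 14.9 CPM in the temozolomide libraries, against 18.5, 17.1 and 15.5 CPM in the DMSO libraries (adjusted p = 0.993, edgeR). In both genes the groups overlapped. PLK2, a kinase under p53 control, was among the 4 that fell (-0.55). With library totals 16 p53 targets rose, and without DMSO library 2, 5 did. The falls numbered 2 with library totals, with DESeq2, with limma on FPKM and without any single temozolomide library. SESN1 lost its edgeR call in knockdown cells without DMSO library 1 (adjusted p = 0.0831), as did FUCA1 without temozolomide library 2 or DMSO library 2 or 3 (adjusted p = 0.0501 to 0.145) and POLH without temozolomide library 1 or DMSO library 2 (adjusted p = 0.0566 to 0.0714). FUCA1 was not called with DESeq2 (log2 fold change 0.22, adjusted p = 0.0514), nor was POLH in any of the 3 FPKM fits with limma (1 added, 0.1 added, or 1 added with no filter) (log2 fold change 0.22 to 0.25, adjusted p = 0.256 to 0.348).

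In the list of alkylation, mismatch and base excision repair, of 29 tested members, 3 fell, 3 rose and 23 did not pass the test, with a median of 0.00; of all genes 22.3% were called in either direction. The mismatch recognition protein MSH6 (0.02, adjusted p = 0.714) did not pass the edgeR test, and neither did PMS2, which acts in the same pathway. MSH6 had 199, 201 and 205 CPM in the temozolomide libraries, against 196, 199.9 and 200.4 CPM in the DMSO libraries, so the groups overlapped. APEX1, the endonuclease that cuts abasic sites, had 102, 100.2 and 102 CPM in the temozolomide libraries, against 128, 125 and 121 CPM in the DMSO libraries (log2 fold change -0.30, SE 0.04, adjusted p = 9.25e-06, edgeR). NEIL3, a glycosylase (0.26), TDP1 (0.17) and the gap-filling polymerase POLB (0.21) rose. In the double-strand break and crosslink list, of 50 tested members, 6 fell (12%), 9 rose (18%) and 35 did not pass the test. Of all genes 13.2% fell and 9.05% rose. The rises included SLX4, a scaffold for nucleases (0.31), FANCG (0.26), FANCM (0.25) and the helicase BLM (0.24). SLX4 had 34.8, 34.9 and 34.7 CPM in the temozolomide libraries, against 26.9, 28.1 and 29.1 CPM in the DMSO libraries, and the groups did not overlap. The end-joining proteins PRKDC (-0.13) and XRCC5 (-0.12) were among those that fell. Of 22 tested checkpoint genes 4 rose and 0 fell, among them TP53BP1 (0.18) and CLSPN, the adaptor that activates CHEK1 (0.20). CHEK1 itself had 119, 117 and 120.3 CPM in the temozolomide libraries, against 119.8, 116.1 and 119 CPM in the DMSO libraries (adjusted p = 0.965, edgeR). Of 30 apoptosis regulators 27 did not pass; CASP9 rose (0.34), and BCL2L11 (-0.28) and BCL2L1 (-0.18) fell. In the alkylation list 8 rose and 1 fell with library totals and 3 and 1 with limma on FPKM, while 1 rose with DESeq2 and without DMSO library 2 or 3 or temozolomide library 2, and 1 fell without temozolomide library 2. In the break and crosslink list 17 rose and 0 fell with library totals, 8 and 0 with limma on FPKM, and 4 and 4 with DESeq2. Its rises numbered 4 without DMSO library 2 or temozolomide library 2 and 5 without DMSO library 1 or temozolomide library 3, and its falls 1 without temozolomide library 1, 2 without temozolomide library 2 or DMSO library 1, and 3 without DMSO library 3. Among checkpoint genes 1 rose without DMSO library 2 or temozolomide library 2, 2 without DMSO library 3 or with DESeq2, and 8 with library totals, under which 5 apoptosis regulators rose. TDP1 lost its edgeR call in knockdown cells without temozolomide library 2 or 3 or any single DMSO library (adjusted p = 0.0631 to 0.149), as did POLB without temozolomide library 1 or 2 or DMSO library 2 or 3 (adjusted p = 0.0674 to 0.148) and FANCM without temozolomide library 2 or 3 or any single DMSO library (adjusted p = 0.075 to 0.124). PRKDC lost its edgeR call in knockdown cells without temozolomide library 1 (adjusted p = 0.0526), as did TP53BP1 without temozolomide library 2 or DMSO library 2 (adjusted p = 0.0552 to 0.0783) and CASP9 without temozolomide library 1 or 2 or DMSO library 1 (adjusted p = 0.0538 to 0.138). TDP1 was not called with DESeq2, with no filter or in any of the 3 FPKM fits (log2 fold change 0.16 to 0.33, adjusted p = 0.066 to 0.138), nor was POLB with DESeq2, with no filter, in the 6 knockdown libraries alone or with a replicate block in the 6 knockdown libraries (log2 fold change 0.20 to 0.21, adjusted p = 0.0536 to 0.135). FANCM was not called with DESeq2 or in any of the 3 FPKM fits (log2 fold change 0.24 to 0.39, adjusted p = 0.0907 to 0.139), nor was PRKDC with library totals or in any of the 3 FPKM fits (log2 fold change -0.07 to -0.06, adjusted p = 0.145 to 0.305). XRCC5 was not called with library totals or in any of the 3 FPKM fits (log2 fold change -0.06, adjusted p = 0.106 to 0.144), nor was CASP9 with DESeq2 or with limma on FPKM with no filter (log2 fold change 0.31 to 0.33, adjusted p = 0.0555 to 0.0735). BCL2L11 was not called in any of the 3 FPKM fits (log2 fold change -0.15 to -0.14, adjusted p = 0.165 to 0.21).

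Most called genes of G2 and mitosis rose, by small amounts. Of the 70 tested members, 27 rose (38.6%), 1 fell (1.43%) and 42 did not pass the test, with a median log2 fold change of 0.10. Of all genes in knockdown cells 9.05% rose and 13.2% fell. BUB1, a kinase of the spindle checkpoint, had 217, 220.0 and 213 CPM in the temozolomide libraries, against 186, 181 and 186 CPM in the DMSO libraries (log2 fold change 0.23, SE 0.04, adjusted p = 0.00011, edgeR). CENPN, a centromere protein, had 79.7, 77.0 and 76.4 CPM in the temozolomide libraries, against 67.2, 64.5 and 65.3 CPM in the DMSO libraries. CKAP2L, a spindle protein, had 142, 142 and 145 CPM in the temozolomide libraries, against 125, 121 and 122 CPM in the DMSO libraries. In each of the 3 the groups did not overlap, and the changes were 0.23, 0.24 and 0.23. NEK2 (0.26) and SGO2, which protects centromeric cohesion (0.24), rose as well, and BUB1B was the member that fell (-0.12). CCNB1 (0.09), CDK1 (0.08), AURKA (0.08) and PLK1 (0.10) did not pass the test. The proliferation marker MKI67 had 1209.8, 1257 and 1266 CPM in the temozolomide libraries, against 1185, 1242 and 1272 CPM in the DMSO libraries (adjusted p = 0.827, edgeR), and its groups overlapped. The count of rises was 49 with library totals and 15 and 13 without DMSO libraries 1 and 2. In control cells 28 members of this list were called higher and 4 lower, against 11.7% higher and 15.8% lower over all genes in those cells. BUB1B lost its edgeR call in knockdown cells without temozolomide library 1 or 3 or any single DMSO library (adjusted p = 0.06 to 0.143). BUB1B was not called with library totals or in any of the 3 FPKM fits (log2 fold change -0.06 to -0.05, adjusted p = 0.32 to 0.428).

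Many promoters of G2 and mitosis genes carry a pair of known elements, which are shown for 2 members that rose. The elements are the cell cycle homology region TTTGAA and the CCAAT box CCAAT. Both strands of the 250 bases before the RefSeq start of each gene (GRCh38.p14) were searched in the 10275 tested genes with an entry. Capitals mark matches on either strand, and in CDCA8 a TTTGAA and a CCAAT match share letters.
CKAP2L (chr2:112764610-112764859, minus strand): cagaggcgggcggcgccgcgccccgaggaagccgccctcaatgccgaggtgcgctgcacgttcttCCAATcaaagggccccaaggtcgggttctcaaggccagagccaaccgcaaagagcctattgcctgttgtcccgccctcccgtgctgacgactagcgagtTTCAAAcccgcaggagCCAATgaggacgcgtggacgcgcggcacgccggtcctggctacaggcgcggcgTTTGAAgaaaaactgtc
CDCA8 (chr1:37692266-37692515, plus strand): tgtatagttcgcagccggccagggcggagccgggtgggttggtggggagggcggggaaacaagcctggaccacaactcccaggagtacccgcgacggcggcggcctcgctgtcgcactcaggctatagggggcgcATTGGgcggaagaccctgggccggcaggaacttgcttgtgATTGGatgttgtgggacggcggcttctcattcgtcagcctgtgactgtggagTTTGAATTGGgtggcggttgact
TTTGAA was present in 28 of 61 promoters of the list (45.9%), against 8.63% of all promoters searched. CCAAT was present in 43 of the 61 (70.5%), against 35.7% of all. Among list members called in either direction 9 of 24 held TTTGAA (37.5%), and among those not called 19 of 37 did (51.4%). For CCAAT these were 15 of 24 (62.5%) and 28 of 37 (75.7%). A match is a description of the letters and not of a site in use.

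In the list of G1/S and DNA replication genes, of 56 tested members, 8 fell (14.3%), 10 rose (17.9%) and 38 did not pass the test, with a median of -0.01. Of all genes 13.2% fell and 9.05% rose, so the share of falls was near that of all genes. RRM2, the S-phase subunit of ribonucleotide reductase, had 666, 648 and 692 CPM in the temozolomide libraries, against 586, 575 and 591 CPM in the DMSO libraries (log2 fold change 0.19, SE 0.03, adjusted p = 0.000168, edgeR). ORC6 (0.22), CDT1 (0.20) and CLSPN rose too. CCND1, cyclin D1, had 251.2, 221 and 234 CPM in the temozolomide libraries, against 308, 291 and 296 CPM in the DMSO libraries (log2 fold change -0.34, SE 0.04, adjusted p = 3.54e-06, edgeR). The helicase subunits MCM2 (-0.13), MCM3 (-0.10), MCM5 (-0.13) and MCM7 (-0.11) fell. With library totals 18 members rose and 1 fell, so the balance of this list moved with the scaling. With limma on FPKM 14 rose and 1 fell, and with DESeq2 6 rose. Without DMSO library 2 or 3, 5 members rose, and without temozolomide library 3, 6. Without temozolomide library 3 or DMSO library 1 or 2, 4 fell, and without temozolomide library 2, 5. Of 19 histone genes and histone chaperones, 17 did not pass the test, and 5 rose with library totals. Of the lists named here with 0 members called in a direction, those of nuclear oxidative phosphorylation, YAP and TAZ targets and receptor tyrosine kinases had 1, 1 and 2 members past an unadjusted p of 0.05 in that direction. The others had 0, and DESeq2 called 0 in each.

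**Figure D2:**
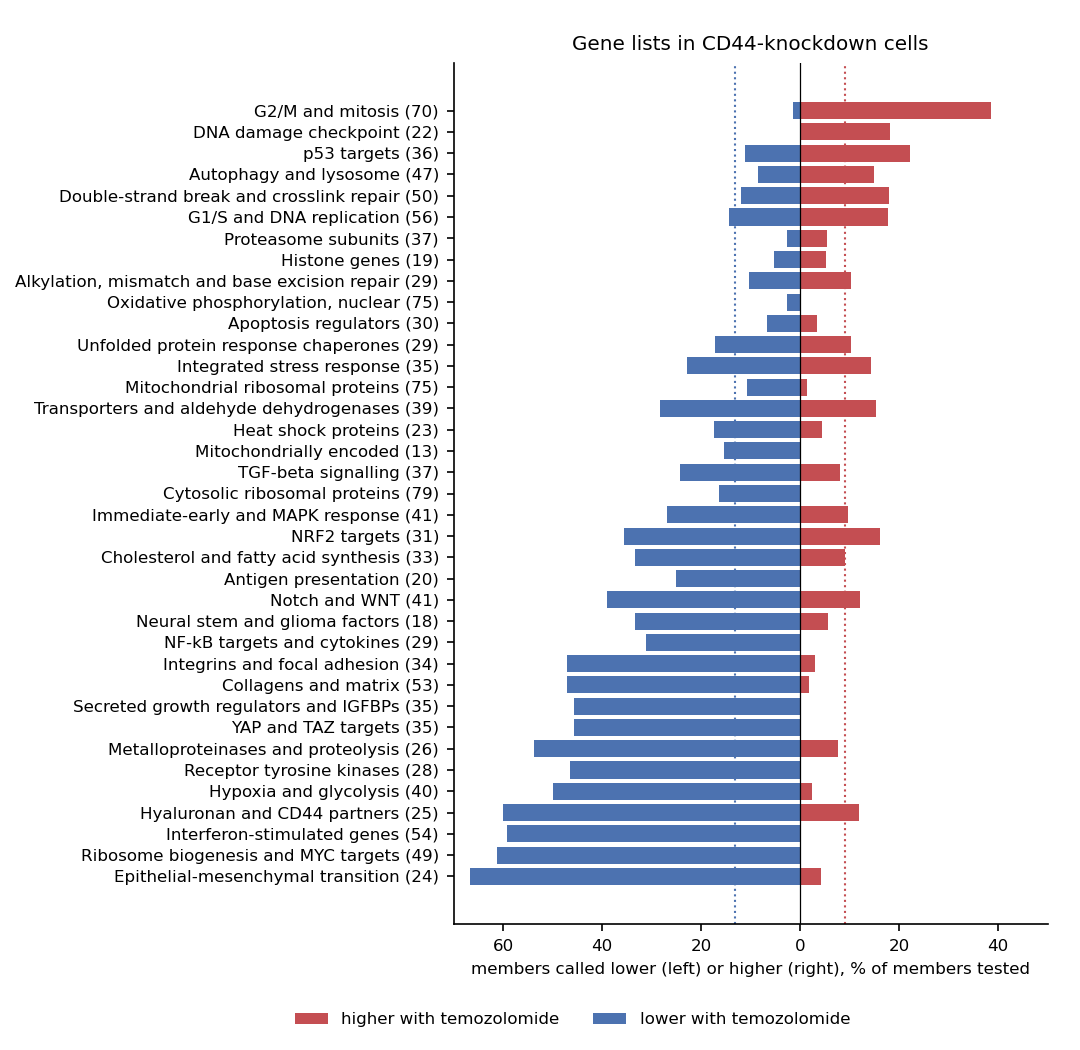
Bars show the percentage of tested members called higher (right) or lower (left) with temozolomide in knockdown cells for each gene list, with the number tested in brackets; dotted lines mark 9.05% higher and 13.2% lower over all genes. G2 and mitosis genes stand out on the right, and mesenchymal, ribosome biogenesis, interferon-stimulated and hyaluronan genes on the left.

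Most called genes of hyaluronan and of CD44's partners fell. In the list of hyaluronan genes and CD44 partners, of 25 tested members, 15 fell (60%), 3 rose (12%) and 7 did not pass the test, with a median of -0.15. Of all genes 13.2% fell and 9.05% rose. CD44 fell further in cells already depleted of it (log2 fold change -0.36, SE 0.03, adjusted p = 1.30e-07, edgeR). VCAN, the hyaluronan-binding proteoglycan versican, had 233, 244 and 249 CPM in the temozolomide libraries, against 395, 389.7 and 401 CPM in the DMSO libraries (log2 fold change -0.71, SE 0.04, adjusted p = 1.00e-10, edgeR). HAS3, a hyaluronan synthase, had 29.9, 25.3 and 28.5 CPM in the temozolomide libraries, against 35.9, 37.4 and 43.6 CPM in the DMSO libraries. HAS2, another synthase, had 1.26, 1.24 and 1.36 CPM in the temozolomide libraries, against 2.26, 2.46 and 1.88 CPM in the DMSO libraries (log2 fold change -0.77). CEMIP, which drives hyaluronan breakdown, had 1.26, 1.77 and 1.29 CPM in the temozolomide libraries, against 3.13, 2.64 and 3.25 CPM in the DMSO libraries. All 5 genes had non-overlapping groups. EZR (-0.20) and MSN (-0.15), which link CD44 to actin, fell, while the third member of that family, RDX, did not pass the test. ADAM10, which sheds the CD44 ectodomain, fell (-0.14), and MMP14 (0.21), another protease that cuts CD44, rose. HYAL3 rose (0.53). On FPKM, limma called 6 members lower, and without DMSO library 2, 1 rose. In control cells 14 lower and 5 higher were called, against 15.8% lower and 11.7% higher over all genes there. HAS2 lost its edgeR call in knockdown cells without temozolomide library 2 or DMSO library 2 (adjusted p = 0.0579 to 0.063), as did ADAM10 without temozolomide library 1 or DMSO library 1 (adjusted p = 0.0736 to 0.0966) and MMP14 without DMSO library 2 (adjusted p = 0.0766). HYAL3 lost its edgeR call in knockdown cells without temozolomide library 1 or DMSO library 1 (adjusted p = 0.0771 to 0.0879). HAS2 was not called with limma on log2(FPKM + 1) (log2 fold change -0.20, adjusted p = 0.0732), nor was MSN in any of the 3 FPKM fits (log2 fold change -0.09, adjusted p = 0.0573 to 0.0606). ADAM10 was not called with library totals or in any of the 3 FPKM fits (log2 fold change -0.11 to -0.07, adjusted p = 0.121 to 0.169), nor was HYAL3 with DESeq2 (log2 fold change 0.52, adjusted p = 0.063).

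Most called genes of the matrix, of adhesion and of the mesenchymal state fell. In the collagen and matrix list, of 53 tested members, 25 fell, 1 rose and 27 did not pass the test, with a median of -0.17. Of all genes 13.2% fell and 9.05% rose. COL1A2, a chain of type I collagen, had 91.6, 91.1 and 86.7 CPM in the temozolomide libraries, against 169, 187 and 178 CPM in the DMSO libraries (log2 fold change -0.98, SE 0.05, adjusted p = 5.01e-12, edgeR). THBS1, thrombospondin 1, had 273, 250.4 and 245 CPM in the temozolomide libraries, against 475, 473 and 471 CPM in the DMSO libraries (log2 fold change -0.88, SE 0.04, adjusted p = 4.32e-12, edgeR). The groups of both were wide apart relative to their spread. LOXL4, a collagen crosslinking oxidase (-0.84), POSTN, periostin (-0.82), COL11A1 (-0.70) and TNC, tenascin C (-0.51), fell, and fibrillin 1, FBN1, rose (0.16). Among integrin and focal adhesion genes, of 34 tested members, 16 fell, 1 rose and 17 did not pass the test. ITGB4, the partner of the laminin receptor ITGA6, had 419.5, 436 and 428 CPM in the temozolomide libraries, against 563, 594 and 577 CPM in the DMSO libraries (log2 fold change -0.44, SE 0.03, adjusted p = 2.63e-09, edgeR). VCL, vinculin (-0.31), TNS3, tensin 3 (-0.50), and ITGAV (-0.25) fell, and ITGB5 rose (0.16). Among metalloproteinase and proteolysis genes, of 26 tested members, 14 fell, 2 rose and 10 did not pass the test. TIMP3, an inhibitor of metalloproteinases, had 185, 180.0 and 181 CPM in the temozolomide libraries, against 279, 289 and 281 CPM in the DMSO libraries (log2 fold change -0.64, SE 0.03, adjusted p = 1.39e-11, edgeR). The plasminogen activators PLAT (-0.42) and PLAU (-0.33) fell together. The members that rose were the membrane-anchored MMP14 and MMP15 (0.80). On FPKM the falls with limma were 16 in the matrix, 9 in the integrin and 9 in the proteolysis list. With library totals 5 integrin and focal adhesion genes rose, and without temozolomide library 3, 3. FBN1 lost its edgeR call in knockdown cells without temozolomide library 2 or 3 or DMSO library 1 (adjusted p = 0.0504 to 0.0576), as did ITGB5 without temozolomide library 1 or 2 or any single DMSO library (adjusted p = 0.0683 to 0.185). FBN1 was not called in any of the 3 FPKM fits (log2 fold change 0.19 to 0.20, adjusted p = 0.0553 to 0.0735), nor was ITGB5 with relative log expression scaling, with DESeq2 or with limma on FPKM with no filter (log2 fold change 0.15 to 0.21, adjusted p = 0.055 to 0.066).

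Apart from the marker lists, the epithelial-mesenchymal transition list held the highest share of falls. Of 24 tested members 16 fell, 1 rose and 7 did not pass, with a median of -0.26. The shares over all genes were 13.2% lower and 9.05% higher. VIM, the intermediate filament vimentin, had 3249, 3045 and 3143 CPM in the temozolomide libraries, against 3829, 3885 and 3813 CPM in the DMSO libraries (log2 fold change -0.29, SE 0.03, adjusted p = 8.51e-07, edgeR). CDH11, a mesenchymal cadherin, had 183, 175 and 188 CPM in the temozolomide libraries, against 268, 272 and 269 CPM in the DMSO libraries (log2 fold change -0.57, SE 0.03, adjusted p = 1.98e-10, edgeR). Every temozolomide library was below every DMSO library for both. CDH2 (-0.26) and the transcription factors ZEB1 (-0.23) and PRRX1 (-0.45) fell. TGFB1 was the member that rose, with 41.5, 42.05 and 40.4 CPM in the temozolomide libraries, against 30.3, 30.7 and 31.3 CPM in the DMSO libraries (log2 fold change 0.43, SE 0.06, adjusted p = 5.47e-05, edgeR), while TGFB2 fell (72.8, 78.9 and 83.1 CPM in the temozolomide libraries, against 120.0, 122 and 115.7 CPM in the DMSO libraries; log2 fold change -0.61, SE 0.05, adjusted p = 3.44e-09, edgeR). Both encode ligands of the same receptors, and they moved in opposite directions. Of 35 tested YAP and TAZ targets 16 fell and 0 rose, with a median of -0.16. F3, tissue factor, had 53.7, 45.1 and 51.2 CPM in the temozolomide libraries, against 99.5, 88.8 and 94.2 CPM in the DMSO libraries (log2 fold change -0.92, SE 0.06, adjusted p = 3.44e-10, edgeR). ANKRD1 (-0.82) and CCN1 (-0.54), often used as readouts of YAP activity, fell with non-overlapping groups. CCN2 fell as well (-0.25), but its groups overlapped. With limma on FPKM 9 YAP and TAZ targets fell, and with library totals 3 rose. CCN2 lost its edgeR call in knockdown cells without temozolomide library 2 or 3 or DMSO library 1 (adjusted p = 0.0515 to 0.0756). CCN2 was not called in any of the 3 FPKM fits (log2 fold change -0.20 to -0.19, adjusted p = 0.145 to 0.207).

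Receptors and ligands of growth signalling were mostly lower or not called. Of 28 tested receptor tyrosine kinases 13 fell and 0 rose, with a median of -0.16, beside 13.2% lower and 9.05% higher over all genes. With limma on FPKM 4 fell, and with library totals 3 rose. PDGFRA, the receptor for platelet-derived growth factor that is often amplified in glioma, had 109, 104 and 108 CPM in the temozolomide libraries, against 188, 194 and 201 CPM in the DMSO libraries (log2 fold change -0.86, SE 0.04, adjusted p = 4.32e-12, edgeR). EGFR had 129, 133 and 133 CPM in the temozolomide libraries, against 154, 148 and 152 CPM in the DMSO libraries (log2 fold change -0.20, SE 0.03, adjusted p = 0.000222, edgeR). The fall of PDGFRA was the larger, and neither gene's groups overlapped. NTRK3, a neurotrophin receptor, had 0.958, 1.24 and 1.51 CPM in the temozolomide libraries, against 4.39, 3.93 and 3.51 CPM in the DMSO libraries (log2 fold change -1.67). Of 35 secreted growth regulators 16 fell and 0 rose, with a median of -0.27. Beside IGFBP5, they included IGFBP4 (-0.45), the axon guidance ligand SEMA3C (-0.48), FGF2 (-0.45) and PDGFC (-0.52). VEGFA, the ligand that drives vessel growth, had 134, 137 and 127 CPM in the temozolomide libraries, against 178, 184 and 180.5 CPM in the DMSO libraries (log2 fold change -0.45, SE 0.04, adjusted p = 6.93e-08, edgeR). EGFR was not called with limma on log2(FPKM + 1) or with limma on log2(FPKM + 0.1) (log2 fold change -0.14 to -0.13, adjusted p = 0.0627 to 0.064).

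In TGF-beta signalling, of 37 tested members, 9 fell (24.3%), 3 rose (8.11%) and 25 did not pass the test. Of all genes 13.2% fell and 9.05% rose, so its share of rises was near that of all genes. In this list 5 fell without DMSO library 3 or with limma on FPKM, and 8 rose with library totals. The falls included INHBA (-0.95), BMP2 (-0.85), BMP4 (-0.65) and the feedback inhibitor PMEPA1 (-0.40). The rises besides TGFB1 were SMURF2 (0.20) and SKI (0.18), both of which restrain the pathway. In the Notch and WNT list, of 41 tested members, 16 fell (39.0%), 5 rose (12.2%) and 20 did not pass the test. With limma on FPKM 8 fell. CTNNB1, beta-catenin, had 510.2, 535 and 533 CPM in the temozolomide libraries, against 633, 642 and 632 CPM in the DMSO libraries (log2 fold change -0.27, SE 0.03, adjusted p = 9.05e-07, edgeR). The WNT targets AXIN2 (-0.51) and LGR5 (-1.06), the ligand WNT7B (-0.65) and the Notch target HEY1 (-0.53) fell. The transcription factor LEF1 rose (0.50). DLL1, a Notch ligand at a low level, had 1.56, 1.24 and 1.15 CPM in the temozolomide libraries, against 0.399, 0.307 and 0.661 CPM in the DMSO libraries (log2 fold change 1.48). Among immediate-early and MAPK response genes, of 41 tested members, 11 fell (26.8%), 4 rose (9.76%, near the share of all genes) and 26 did not pass the test. EGR1 rose while its relative EGR2 fell (-0.72); FOSL2 (-0.48), JUN (-0.21), PHLDA1 (-0.48) and SPRY2 (-0.38) fell, and ATF3 rose (0.33). Without DMSO library 1, 7 of these genes fell, with limma on FPKM 6 fell, and with library totals 8 fell and 9 rose. FOS did not pass the test (0.72, adjusted p = 0.0823, edgeR). AXIN2 lost its edgeR call in knockdown cells without temozolomide library 3 or DMSO library 2 (adjusted p = 0.0653 to 0.0858), as did LGR5 without temozolomide library 2 or 3 or any single DMSO library (adjusted p = 0.0503 to 0.242) and EGR2 without temozolomide library 1 or 2 or DMSO library 1 or 3 (adjusted p = 0.0737 to 0.139). ATF3 lost its edgeR call in knockdown cells without temozolomide library 1 or any single DMSO library (adjusted p = 0.0525 to 0.156). INHBA was not called in any of the 3 FPKM fits (log2 fold change -0.67 to -0.32, adjusted p = 0.058 to 0.0766), nor was AXIN2 in any of the 3 FPKM fits (log2 fold change -0.51 to -0.38, adjusted p = 0.186 to 0.282). LGR5 was not called with DESeq2, with a replicate block or in any of the 3 FPKM fits (log2 fold change -1.07 to -0.20, adjusted p = 0.0569 to 0.192), nor was EGR2 with DESeq2 or in any of the 3 FPKM fits (log2 fold change -0.72 to -0.20, adjusted p = 0.0677 to 0.226). JUN was not called in any of the 3 FPKM fits (log2 fold change -0.15, adjusted p = 0.0631 to 0.075), nor was ATF3 with DESeq2 or in any of the 3 FPKM fits (log2 fold change 0.33 to 0.43, adjusted p = 0.0533 to 0.0971).

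All called genes of ribosome biogenesis fell. Of the 49 tested ribosome biogenesis genes and MYC targets, 30 fell and 0 rose, with a median of -0.18. NPM1, nucleophosmin, had 1362, 1339.8 and 1452 CPM in the temozolomide libraries, against 1705, 1648 and 1657 CPM in the DMSO libraries (log2 fold change -0.27, SE 0.03, adjusted p = 2.08e-06, edgeR). NCL, nucleolin, had 782, 808 and 850.3 CPM in the temozolomide libraries, against 950.2, 960.5 and 956 CPM in the DMSO libraries (log2 fold change -0.23, SE 0.03, adjusted p = 1.89e-05, edgeR). FBL, which methylates ribosomal RNA, had 121, 117 and 115 CPM in the temozolomide libraries, against 145, 137 and 135 CPM in the DMSO libraries (log2 fold change -0.24, SE 0.04, adjusted p = 0.00011, edgeR). None of the 3 had overlapping groups, and the falls were of similar size. MYC itself fell (53.6, 54.1 and 53.3 CPM in the temozolomide libraries, against 70.1, 72.5 and 63.0 CPM in the DMSO libraries; log2 fold change -0.35, SE 0.06, adjusted p = 0.000181, edgeR). With limma on FPKM 14 members fell and 1 rose. In control cells 32 lower and 0 higher were called, against 15.8% lower and 11.7% higher over all genes there. The ribosomal proteins themselves moved less. Over all genes 13.2% fell and 9.05% rose. Of 79 cytosolic ribosomal proteins 13 fell (16.5%, near that share) and 0 rose, with a median of -0.10. With library totals 0 fell and 1 rose, with limma on FPKM 0 fell, and without temozolomide library 2 or DMSO library 1, 3 fell. More fell with no filter (35), in a fit to the 6 knockdown libraries (28) and in that fit with a replicate block (40). Of 75 mitochondrial ribosomal proteins 8 fell (10.7%) and 1 rose (1.33%). In that list 1 fell and 2 rose with library totals, and 2 fell without DMSO library 1. Of 75 nuclear genes of oxidative phosphorylation 73 did not pass, and of 13 mitochondrially encoded genes 2 fell (15.4%). For the mitochondrially encoded genes the count was 0 with library totals, with limma on FPKM and without DMSO library 2, 6 with no filter and in the 6 knockdown libraries, and 9 with a block there. Without temozolomide library 2, 3 mitochondrial ribosomal proteins fell.

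Most called genes of hypoxia and glycolysis fell. Of 40 tested members 20 fell and 1 rose, with a median of -0.14, beside 13.2% lower and 9.05% higher over all genes. HIF1A, the oxygen-regulated transcription factor, had 542, 576 and 547 CPM in the temozolomide libraries, against 699.8, 709 and 713 CPM in the DMSO libraries (log2 fold change -0.35, SE 0.03, adjusted p = 2.41e-07, edgeR). Its target NDRG1 had 60.8, 65.3 and 61.2 CPM in the temozolomide libraries, against 87.0, 94.3 and 89.1 CPM in the DMSO libraries (log2 fold change -0.53, SE 0.05, adjusted p = 1.20e-07, edgeR). Both genes' groups were separate. EGLN3, a prolyl hydroxylase that marks HIF for decay (-0.75), CA9, a carbonic anhydrase (-0.83), and the glycolytic enzymes ENO1 (-0.24), HK2 (-0.26) and PGK1 (-0.19) fell, and ENO2 rose (0.20). On FPKM, limma called 10 members lower. Among cholesterol and fatty acid synthesis genes, of 33 tested members, 11 fell (33.3%), 3 rose (9.09%, near the share of all genes) and 19 did not pass the test. DHCR7, which makes cholesterol in the last step of the pathway, had 152, 148 and 143 CPM in the temozolomide libraries, against 188, 200.2 and 196 CPM in the DMSO libraries (log2 fold change -0.40, SE 0.04, adjusted p = 7.36e-08, edgeR). The elongase ELOVL6 (-0.52) and the regulators SREBF1 (-0.28) and SREBF2 (-0.27) fell, while IDI1 (0.21) and ACSS2 (0.38) rose. With limma on FPKM 5 of these genes fell, with library totals 5 rose, and without DMSO library 2, 1 rose. ENO2 lost its edgeR call in knockdown cells without DMSO library 2 (adjusted p = 0.0644), as did IDI1 without temozolomide library 2 or DMSO library 2 (adjusted p = 0.0628 to 0.0893). NDRG1 was not called in any of the 3 FPKM fits (log2 fold change -0.15, adjusted p = 0.679 to 0.756), nor was ENO2 with limma on FPKM with no filter (log2 fold change 0.22, adjusted p = 0.0508). ACSS2 was not called with limma on FPKM with no filter (log2 fold change 0.37, adjusted p = 0.07).

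Stress responses were mixed, beside 9.05% of all genes that rose and 13.2% that fell. Among NRF2 targets, of 31 tested members, 11 fell, 5 rose and 15 did not pass the test. AKR1C2, an aldo-keto reductase of steroids and carbonyls, had 96.3, 101 and 93.2 CPM in the temozolomide libraries, against 173, 171 and 158 CPM in the DMSO libraries (log2 fold change -0.79, SE 0.04, adjusted p = 6.65e-11, edgeR). AKR1C1 (-0.58) and AKR1C3 (-0.68) fell with it; the 3 are near-identical, and reads shared between them make each value uncertain. SRXN1, sulfiredoxin, moved the other way (114, 108 and 111 CPM in the temozolomide libraries, against 90.3, 91.6 and 82.5 CPM in the DMSO libraries; log2 fold change 0.33, SE 0.04, adjusted p = 1.05e-05, edgeR), as did OSGIN1 (0.48). With library totals 8 NRF2 targets rose and 8 fell, and without DMSO library 2 or 3, 3 rose. In the integrated stress response list, of 35 tested members, 8 fell, 5 rose and 22 did not pass the test. ASNS, asparagine synthetase (0.26), CHAC1, which degrades glutathione (0.43), and ATF3 rose, while the transfer RNA synthetases WARS1 (-0.20) and AARS1 (-0.15) fell. The balance of this list turned round with library totals, under which 5 fell and 7 rose, and with limma on FPKM, with 2 and 5; without DMSO library 2 or 3, 3 rose. Among unfolded protein response genes, of 29 tested members, 5 fell (17.2%), 3 rose (10.3%) and 21 did not pass, near the shares over all genes. The chaperones HSPA5 (944, 968 and 964 CPM in the temozolomide libraries, against 1117, 1161 and 1098 CPM in the DMSO libraries; log2 fold change -0.23, SE 0.03, adjusted p = 6.80e-06, edgeR) and HSP90B1 (-0.23) fell, and the sensor ERN1 rose (0.28). Without DMSO library 1 or 3, or with DESeq2, 0 members of this list rose. Without temozolomide library 1 or 2 or DMSO library 2, 1 did, and with library totals 3 fell and 5 rose. Of 23 heat shock genes 18 did not pass, 4 fell (17.4%) and 1 rose (4.35%), and with library totals 1 fell and 4 rose. In the autophagy and lysosome list, of 47 tested members, 4 fell (8.51%), 7 rose (14.9%) and 36 did not pass the test. The kinases that start autophagy, ULK1 (60.3, 62.8 and 58.7 CPM in the temozolomide libraries, against 42.7, 47.1 and 48.6 CPM in the DMSO libraries; log2 fold change 0.39, SE 0.05, adjusted p = 1.34e-05, edgeR) and ULK2 (0.41), and the sialidase NEU1 (0.36) rose, and cathepsin B, CTSB, fell (-0.17). With library totals 2 fell and 14 rose in this list, and with limma on FPKM 0 and 10. Of 37 proteasome subunits 34 did not pass and 2 rose, but 10 rose with library totals and 8 with limma on FPKM. Among transporters and aldehyde dehydrogenases, of 39 tested members, 11 fell, 6 rose and 22 did not pass the test. The drug exporters ABCC1 (-0.26), ABCC2 (-0.39) and ABCC3 (-0.27) fell, and ABCC5 rose (0.18). In that list 2 rose without temozolomide library 2 or DMSO library 1, 3 without DMSO library 3, 7 fell without temozolomide library 1, and with limma on FPKM 3 fell. With library totals 6 fell and 7 rose. ERN1 lost its edgeR call in knockdown cells without temozolomide library 2 or any single DMSO library (adjusted p = 0.06 to 0.0987), as did ABCC5 without DMSO library 1 (adjusted p = 0.061). AARS1 was not called in any of the 3 FPKM fits (log2 fold change -0.09, adjusted p = 0.0563 to 0.0659), nor was ERN1 with DESeq2 or in any of the 3 FPKM fits (log2 fold change 0.21 to 0.30, adjusted p = 0.0544 to 0.0999). CTSB was not called in any of the 3 FPKM fits (log2 fold change -0.10, adjusted p = 0.0849 to 0.108), nor was ABCC3 with limma on FPKM with no filter (log2 fold change -0.18, adjusted p = 0.0505).

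All called interferon-stimulated genes fell with temozolomide, to a degree that differed between libraries. Of 54 tested members 32 fell and 0 rose, with a median of -0.41, against 13.2% lower and a median of 0.00 over all genes. GBP1, an antiviral GTPase, had 24.4, 17.9 and 16.4 CPM in the temozolomide libraries, against 35.9, 36.9 and 34.3 CPM in the DMSO libraries (log2 fold change -0.86, SE 0.11, adjusted p = 5.86e-06, edgeR). MX1, another antiviral GTPase, had 31.6, 12.6 and 13.1 CPM in the temozolomide libraries, against 36.3, 40.2 and 33.2 CPM in the DMSO libraries (log2 fold change -0.94, SE 0.20, adjusted p = 0.00199, edgeR). OAS1, which senses double-stranded RNA, had 14.5, 4.63 and 5.81 CPM in the temozolomide libraries, against 16.5, 16.3 and 15.3 CPM in the DMSO libraries (log2 fold change -0.95, SE 0.26, adjusted p = 0.0106, edgeR). In each of these the first value, that of temozolomide library 1, was the highest of its group and the closest to DMSO. Library 1 was the highest of the 3 temozolomide libraries in 31 of the 32 members that fell. In 25 of the 32, library 1 was still below all 3 DMSO libraries, and libraries 2 and 3 were below them in all 32. Those 32 were picked as called lower on the same values. Over all 54 tested members library 1 was below all 3 DMSO libraries in 27, library 2 in 54 and library 3 in 50. Without temozolomide library 1, 44 members fell and the median was -0.59. Without temozolomide library 2, 19 fell with a median of -0.29, and with limma on FPKM 19 fell. The part of library 1 in this result was otherwise not tested. ISG15, a ubiquitin-like modifier, had 31.8, 12.2 and 13.5 CPM in the temozolomide libraries, against 28.2, 29.7 and 26.3 CPM in the DMSO libraries (adjusted p = 0.0627, edgeR). Its highest value of all 6 libraries was in temozolomide library 1, and it did not pass the test. GBP1 and GBP5 belong to a family of near copies, so their values are uncertain. OAS1 lost its edgeR call in knockdown cells without temozolomide library 2 or 3 (adjusted p = 0.0562 to 0.0739). OAS1 was not called with DESeq2 or in any of the 3 FPKM fits (log2 fold change -0.95 to -0.74, adjusted p = 0.0732 to 0.125).

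Many promoters of this list carry a known element, shown for the 4 deepest called members that hold it and had non-overlapping groups. The element searched, a GAAA followed after any 2 bases by another GAAA, is a form of the interferon-stimulated response element, which a complex holding STAT2 and IRF9 binds. Capitals mark matches on either strand within the 250 bases before the RefSeq start.
IFI44L (chr1:78620198-78620447, plus strand): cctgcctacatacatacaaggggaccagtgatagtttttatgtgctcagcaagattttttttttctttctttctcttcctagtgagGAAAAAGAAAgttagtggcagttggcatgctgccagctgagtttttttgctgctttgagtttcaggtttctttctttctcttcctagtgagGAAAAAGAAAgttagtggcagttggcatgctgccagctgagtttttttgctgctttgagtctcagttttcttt
CXCL10 (chr4:76023498-76023747, minus strand): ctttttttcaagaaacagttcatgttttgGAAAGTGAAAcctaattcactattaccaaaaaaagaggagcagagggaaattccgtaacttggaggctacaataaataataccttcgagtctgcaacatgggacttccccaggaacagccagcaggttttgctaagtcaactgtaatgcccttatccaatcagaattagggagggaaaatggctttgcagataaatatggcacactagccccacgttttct
EPSTI1 (chr13:42992242-42992491, minus strand): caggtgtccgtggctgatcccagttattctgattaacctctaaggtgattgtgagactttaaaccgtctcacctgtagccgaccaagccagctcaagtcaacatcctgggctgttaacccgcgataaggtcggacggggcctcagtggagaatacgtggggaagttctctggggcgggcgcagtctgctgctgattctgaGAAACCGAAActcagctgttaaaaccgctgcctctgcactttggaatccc
GBP1 (chr1:89065209-89065458, minus strand): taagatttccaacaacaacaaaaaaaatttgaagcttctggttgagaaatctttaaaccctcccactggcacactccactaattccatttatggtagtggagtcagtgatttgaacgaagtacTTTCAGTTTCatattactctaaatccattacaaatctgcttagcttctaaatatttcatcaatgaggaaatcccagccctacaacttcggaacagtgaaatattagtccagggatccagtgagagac
IFI44L holds 2 matches and the other 3 hold 1 each, that of GBP1 on the opposite strand. The element was present in 23 of 42 promoters of the list (54.8%), against 2.37% of all 10275 promoters. It was present in 14 of 23 members that fell (60.9%) and in 9 of 19 that did not pass (47.4%). Members with it had a median of -0.41, and those without it -0.33. Over all genes it was found in 4.29% of the promoters of genes that fell and 1.06% of those that rose. CXCL10, a chemokine induced by interferon, had 0.539, 0.573 and 0.502 CPM in the temozolomide libraries, against 1.46, 1.11 and 0.966 CPM in the DMSO libraries (log2 fold change -1.10). EPSTI1 had 9.82, 6.83 and 4.95 CPM in the temozolomide libraries, against 13.6, 14.8 and 11.9 CPM in the DMSO libraries (log2 fold change -0.88, SE 0.16, adjusted p = 0.000494, edgeR). CXCL10 lost its edgeR call in knockdown cells without any single temozolomide library or DMSO library 1 or 2 (adjusted p = 0.0746 to 0.155). CXCL10 was not called with no filter (log2 fold change -1.11, adjusted p = 0.106).

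**Figure D3:**
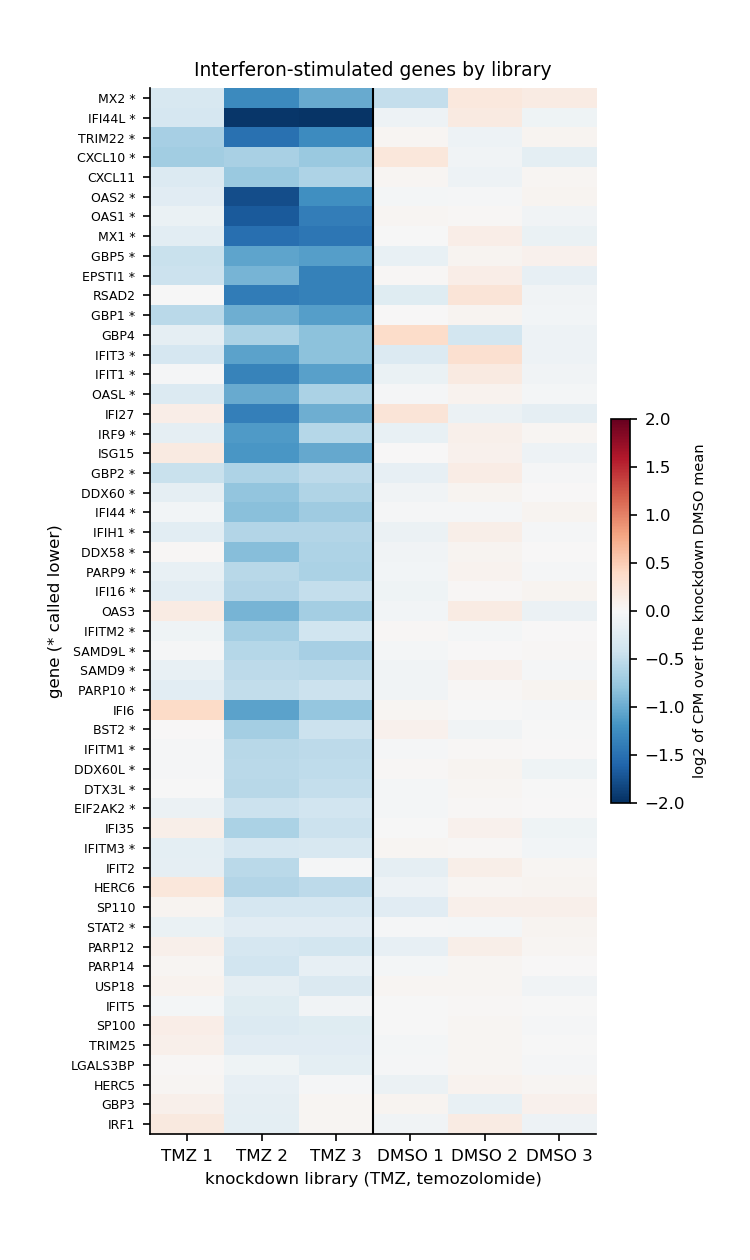
Heat map of 53 of the 54 tested interferon-stimulated genes (rows, ordered by log2 fold change; asterisk, called lower) in the 6 knockdown libraries (columns, temozolomide left of DMSO), as log2 of CPM over the knockdown DMSO mean with 0.5 added to both. Temozolomide libraries 2 and 3 are blue in nearly all rows, with medians of -0.62 and -0.55, and library 1 is pale, with a median of -0.07.

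All called NF-kB targets and cytokines fell; with library totals 1 rose. Of 29 tested members 9 fell and 0 rose, with a median of -0.27, beside 13.2% lower and 9.05% higher over all genes. Beside CCL2, CXCL8, the neutrophil chemokine interleukin 8, had 3.47, 1.72 and 2.08 CPM in the temozolomide libraries, against 4.66, 4.73 and 5.85 CPM in the DMSO libraries (log2 fold change -1.08, SE 0.22, adjusted p = 0.00122, edgeR). TNFAIP2 had 187, 193 and 170.0 CPM in the temozolomide libraries, against 263, 269 and 269.8 CPM in the DMSO libraries (log2 fold change -0.54, SE 0.04, adjusted p = 5.50e-09, edgeR). TNFSF10, the death ligand TRAIL (-0.67), IL32 (-1.06), the adhesion molecule VCAM1 (-1.02) and the mitochondrial superoxide dismutase SOD2 (-0.16) fell. Of 20 antigen presentation genes 5 fell and 0 rose, among them the immunoproteasome subunit PSMB8 (-0.27) and the peptide transporter subunit TAP2 (-0.21). On FPKM, limma called 1 antigen presentation gene lower, and with library totals 3 fell. In TNFSF10 and PSMB8 temozolomide library 1 lay with the other 2 temozolomide libraries: TNFSF10 had 10.2, 10.2 and 10.6 CPM in the temozolomide libraries, against 16.8, 16.7 and 15.9 CPM in the DMSO libraries. VCAM1 lost its edgeR call in knockdown cells without temozolomide library 2 or 3 or DMSO library 2 or 3 (adjusted p = 0.0554 to 0.0894). VCAM1 was not called with DESeq2 or with limma on log2(FPKM + 0.1) (log2 fold change -1.03 to -0.73, adjusted p = 0.0574 to 0.0808), nor was SOD2 with library totals or in any of the 3 FPKM fits (log2 fold change -0.10 to -0.05, adjusted p = 0.0573 to 0.723). TAP2 was not called in any of the 3 FPKM fits (log2 fold change -0.18 to -0.17, adjusted p = 0.0947 to 0.124).

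Marker genes were looked at beside the cell type named in the labels, and they did not settle it. GFAP was close to the detection floor, and AQP4 and CHI3L1 were under it. NES, GJA1 and the summed epithelial markers were well above it. Of 15 glioma and astrocyte markers 10 were tested, 7 fell and 0 rose, with a median of -0.33. Of all genes 13.2% fell and 9.05% rose. GFAP, the classical astrocyte filament, was close to the detection floor, with 1.02, 0.430 and 0.359 CPM in the temozolomide libraries, against 1.80, 1.29 and 0.712 CPM in the DMSO libraries (adjusted p = 0.114, edgeR). Nestin, NES (55.6, 53.8 and 63.5 CPM in the temozolomide libraries, against 79.9, 78.1 and 74.5 CPM in the DMSO libraries; log2 fold change -0.43, SE 0.06, adjusted p = 1.37e-05, edgeR), SOX9 (-0.24) and the gap junction protein GJA1 (226, 267 and 249 CPM in the temozolomide libraries, against 442, 448 and 449 CPM in the DMSO libraries; log2 fold change -0.85, SE 0.05, adjusted p = 8.51e-11, edgeR) fell. SOX2, a neural stem cell factor, did not pass (-0.09, adjusted p = 0.0724, edgeR), although its groups did not overlap. Of 13 leukocyte markers 1 was tested, and AIF1, CD3E and FCGR3A had 0 counts in all 6 knockdown libraries. MOG, MAG and OLIG1 of the oligodendrocyte markers also had 0 counts. PTPRC of the leukocyte markers had 4, 7 and 8 counts in the temozolomide libraries, against 10, 12 and 8 in the DMSO libraries. MBP of the oligodendrocyte markers had 13, 12 and 2 counts, against 10, 10 and 11. The 2 tested oligodendrocyte markers together were at 82.2, 71.9 and 70.4 CPM in temozolomide libraries, against 78.0, 79.0 and 75.2 CPM in DMSO libraries. The astrocyte markers AQP4 and CHI3L1 had at most 1 count in any knockdown library. The 1 tested leukocyte marker was at 27.1, 23.7 and 25.8 CPM in temozolomide libraries, against 24.3, 22.1 and 25.5 CPM in DMSO libraries. Of 15 neuronal markers 6 were tested and TUBB3 rose (32.7, 29.1 and 29.6 CPM in the temozolomide libraries, against 19.4, 19.5 and 21.05 CPM in the DMSO libraries; log2 fold change 0.61, SE 0.09, adjusted p = 6.29e-05, edgeR). Of 13 epithelial markers 10 were tested, 7 fell and 0 rose, while EPCAM and CDH1 had at most 3 counts in any knockdown library. The 10 tested epithelial markers summed to 724, 818 and 712 CPM in temozolomide libraries, against 1146, 1233 and 1111 CPM in DMSO libraries. This sum over 10 genes is not like the level of the 1 leukocyte marker. Of 9 tested fibroblast and pericyte markers 3 fell, and of 4 tested endothelial markers 2 fell. In the neural stem and glioma factor list, of 18 tested members, 6 fell, 1 rose and 11 did not pass the test; with library totals 3 rose.

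Keratins, tubulins and kinesins were looked at after their values had been seen. Over all genes 9.05% rose and 13.2% fell in knockdown cells, and 11.7% rose and 15.8% fell in control cells. Of 16 tested keratins 8 fell and 0 rose in knockdown cells, with a median of -0.62. The count of falls was also 8 with library totals and on FPKM. KRT5, a basal epithelial keratin, had 294, 347 and 298 CPM in the temozolomide libraries, against 559.8, 609 and 529.9 CPM in the DMSO libraries (log2 fold change -0.85, SE 0.05, adjusted p = 2.47e-10, edgeR). KRT80 (228, 232 and 212 CPM in the temozolomide libraries, against 392, 413 and 386 CPM in the DMSO libraries; log2 fold change -0.82, SE 0.04, adjusted p = 1.03e-11, edgeR) and KRT15 (-0.84) fell with non-overlapping groups. KRT14 (-0.76) and KRT16 (-0.98) have near copies, so their values are uncertain. Of 16 tubulins 6 rose and 0 fell, with a median of 0.12; besides TUBB3 these included TUBB2A (0.28) and TUBB4A (0.46). Of 31 kinesins 10 rose and 3 fell, with a median of 0.12. KIF5C, a neuronal transport motor, had 12.8, 16.4 and 15.001 CPM in the temozolomide libraries, against 8.45, 10.1 and 9.25 CPM in the DMSO libraries (log2 fold change 0.67, SE 0.10, adjusted p = 7.60e-05, edgeR). Of 42 protocadherins 13 fell and 1 rose, with a median of -0.31, and on FPKM 6 fell. In control cells 11 keratins fell and 1 rose, 3 tubulins rose and 2 fell, and 11 kinesins rose and 2 fell. TUBB4A lost its edgeR call in knockdown cells without any single temozolomide library or DMSO library 1 or 3 (adjusted p = 0.0535 to 0.131). TUBB4A was not called with DESeq2 (log2 fold change 0.45, adjusted p = 0.086).

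The share of genes called lower was higher among long genes, a pattern also chosen after the values were seen. Span is the distance from the first to the last base of the gene in a GRCh38 annotation, joined by gene ID for 12782 of the tested genes. Of the 1050 genes over 200 kb, 26.8% fell and 5.24% rose, with a median of -0.08. Of the 2271 genes up to 10 kb, 9.73% fell and 6.52% rose, with a median of 0.00. The shares that fell in between were 10.6% at 10 to 30 kb, 12.5% at 30 to 100 kb and 17.0% at 100 to 200 kb. Median span was 52.0 kb for genes that fell, 39.97 kb for genes that rose and 34.7 kb for all. All 3 temozolomide libraries showed it: the median of genes over 200 kb, as log2 against the DMSO mean, was -0.09, -0.06 and -0.08. In the DMSO libraries it was -0.01, 0.00 and 0.01. The share that fell over 200 kb stayed above that of the shortest genes with library totals (19.2% against 5.99%), with GC correction (27.0% against 11.8%) and with limma on FPKM (10.1% against 4.14%). In control cells 23.5% of genes over 200 kb fell and 8.57% rose, and 16.3% of those up to 10 kb fell. Genes named above that span more than 200 kb include COL11A1 (-0.70), EGLN3 (-0.75) and RIPOR2 (-1.20). Gene level was not held constant between the bins, its part was not tested, and median CPM with DMSO ran from 17.9 to 42.2 across them.

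**Figure D4:**
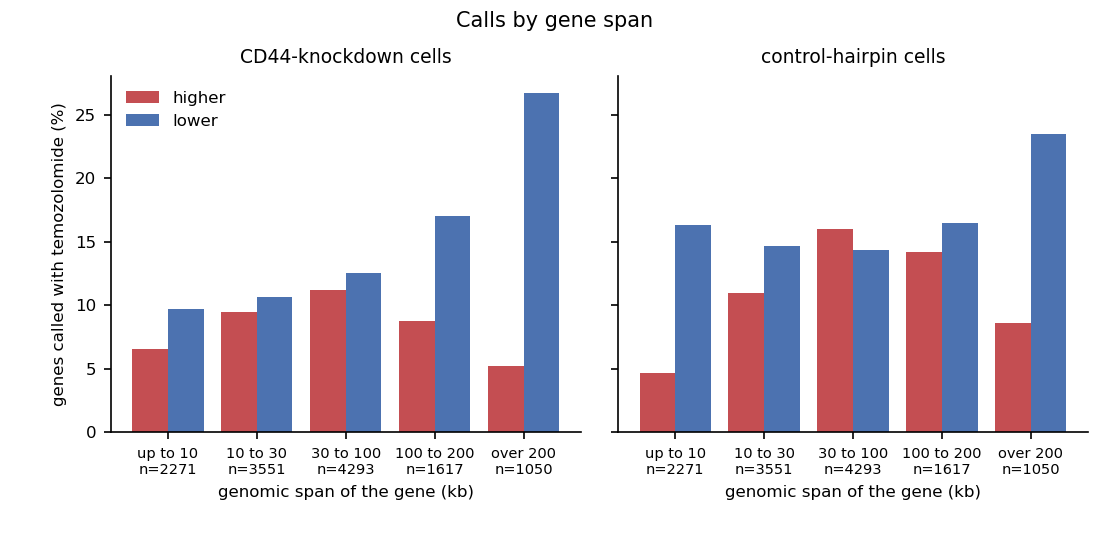
Percentage of tested genes called higher (red) or lower (blue) with temozolomide, by genomic span in kb, in knockdown cells (left) and control-hairpin cells (right); n is the number of genes per bin. In knockdown cells the lower share is 9.73% in the shortest bin and 26.8% in the longest.

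The response in knockdown cells was set against that in control-hairpin cells by testing the difference of the 2 log2 fold changes. The difference was called for 135 genes (1.05%), 56 (0.437%) above 0 and 79 (0.616%) below 0. Of these, 27 were called in both kinds of cell in the same direction, 17 in both in opposite directions, 43 in knockdown cells only and 48 in control cells only. The count was unstable. Without a single library it ran from 5 to 210 above 0 and from 13 to 212 below 0, with GC correction it was 11 and 24, and with limma on log2(FPKM + 1) it was 1 and 2. Control DMSO libraries had a GC difference of 0.07 to 0.22 log2 units, against -0.13 to 0.04 in the control temozolomide libraries.

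IGFBP5 fell further in knockdown than in control cells. In control cells it had 769.6, 714 and 751 CPM with temozolomide, against 1272, 1401 and 1324 CPM with DMSO. The difference of responses was -0.47 (SE 0.06, adjusted p = 0.000664, edgeR), and it was called under 20 of 22 alternatives. EHF, an ETS factor of epithelial cells, had 89.1, 119 and 97.3 CPM in the temozolomide libraries, against 205, 213 and 205 CPM in the DMSO libraries of the knockdown cells. In control cells it had 333, 347 and 361 CPM with temozolomide, against 414, 446 and 423 CPM with DMSO. Its difference was -0.71 (SE 0.09, adjusted p = 0.00073, edgeR), called under 19 of 22. PI15 differed by -1.07 (adjusted p = 0.00657, edgeR), called under 18 of 21. EDIL3, a matrix ligand of integrins, had 138, 153 and 149 CPM in the temozolomide libraries, against 202, 207 and 199 CPM in the DMSO libraries of the knockdown cells, and in control cells 133, 140.4 and 145 CPM with temozolomide, against 138, 148 and 138 CPM with DMSO. It fell in knockdown cells and overlapped between treatments in control cells, with a difference of -0.45 (adjusted p = 0.00211, edgeR). KITLG, the ligand of the KIT receptor (-0.41), FILIP1L (-0.63) and SNTB1, a syntrophin (-0.55), differed likewise. A difference above 0 was found for NOS2, the inducible nitric oxide synthase, which fell less in knockdown cells (-0.55) than in control cells (-1.46; difference 0.91, adjusted p = 0.00505, edgeR). TGFBI, a secreted matrix protein, also fell less (-0.29 against -0.63). Of these 9 genes only IGFBP5 and NOS2 had a difference called with limma on log2(FPKM + 1), and the smallest difference of PI15 under any alternative was -0.41.

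Of the genes around CD44, ADAM10 and SLC7A11 were called as different. ADAM10 fell in knockdown cells (-0.14) and rose in control cells (0.14), with an adjusted p of 0.027 for the difference in edgeR. SLC7A11, the cystine transporter that a CD44 variant stabilises, rose less in knockdown cells (0.15) than in control cells (0.39; adjusted p = 0.0388, edgeR). ADAM10 was called under 12 and SLC7A11 under 11 of 22 alternatives. For CD44 itself the adjusted p of the difference was 0.67 in edgeR. Among interferon-stimulated genes the difference was called for 3 of 54: IFIH1 (-0.54), SAMD9 (-0.48) and EIF2AK2 (-0.40), and the median difference over the list was -0.38. In control cells 6 lower and 4 higher were called, against 15.8% lower and 11.7% higher over all genes there, with a median of 0.02. The list was lower in control cells than in knockdown DMSO cells. Its median level, as log2 against the knockdown DMSO mean, was -1.13, -1.17 and -1.11 in control temozolomide libraries. In control DMSO libraries it was -1.07, -1.05 and -1.21. GBP1 was lower in control cells than in knockdown cells under either treatment, with 4.89, 5.26 and 3.81 CPM with temozolomide, against 4.67, 5.70 and 5.23 CPM with DMSO there. IFIH1, SAMD9 and EIF2AK2 were called under 9 of 21, 9 of 22 and 10 of 22 alternatives. ANKHD1-EIF4EBP3, MSANTD3-TMEFF1 and PCDHB9, which also differed, overlap or closely resemble other genes, so their values are uncertain. SLC7A11 lost its edgeR call in knockdown cells without DMSO library 2 (adjusted p = 0.0794), as did PCDHB9 without temozolomide library 1 or 3 or DMSO library 2 (adjusted p = 0.0508 to 0.104). SAMD9 was not called in knockdown cells with limma on FPKM with no filter (log2 fold change -0.33, adjusted p = 0.0751), nor was EIF2AK2 in any of the 3 FPKM fits (log2 fold change -0.23 to -0.22, adjusted p = 0.0505 to 0.0793). PCDHB9 was not called in knockdown cells with DESeq2 or in any of the 3 FPKM fits (log2 fold change -0.47 to -0.30, adjusted p = 0.0745 to 0.341).

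**Figure D5:**
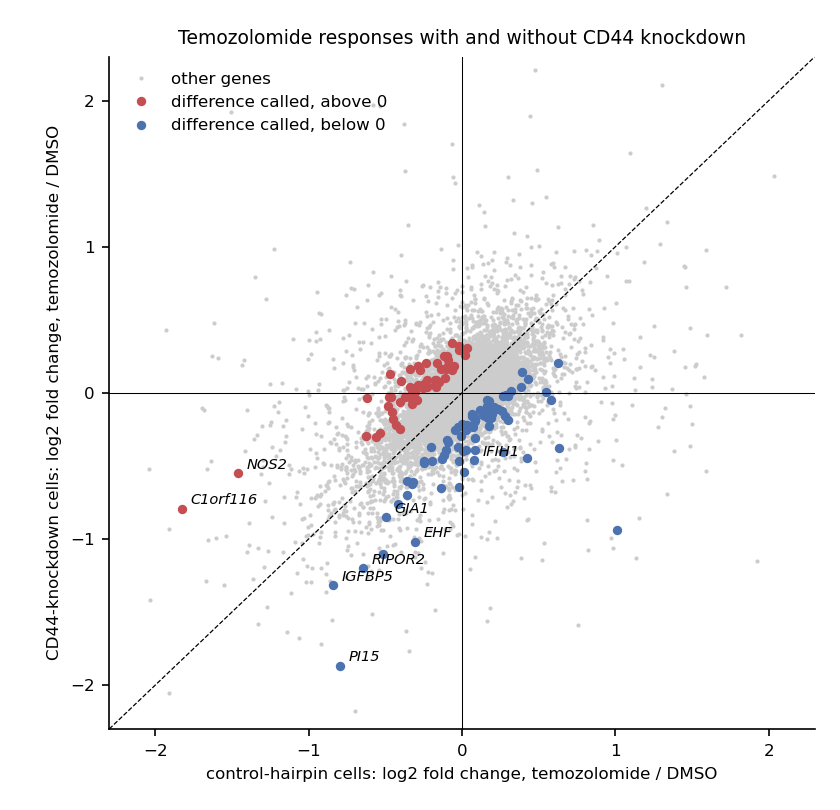
Each point is a gene, with its log2 fold change with temozolomide in knockdown cells (vertical) and in control-hairpin cells (horizontal); the dashed line marks equal responses and coloured points are the 135 genes whose difference was called, less 2 beyond the axes. PI15, EHF and IGFBP5 lie below the dashed line, with differences of -1.07, -0.71 and -0.47, and NOS2 and C1orf116 lie above it, with 0.91 and 1.03.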

How the data were processed

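The authors' deposited table holds estimated counts per gene for 12 libraries, with fractions in 10.7% to 12.0% of values, and a second deposited table holds FPKM, which are scaled by transcript length and sequencing depth. Tools named in the submitters' processing notes were RSEM, HISAT2, StringTie 1.3.1, Bowtie2 2.2.8 and fastp 0.18.0, with no roles. The build, annotation and strand setting were not given in the labels or headers. Per the labels' protocols, poly(A) RNA was selected with oligo(dT), and libraries were sequenced on an Illumina instrument.

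Of 20289 genes, 3176 had no count in any library. Counts were rounded and fitted in R 4.3.3 with edgeR 4.0.16 (quasi-likelihood test, TMM scaling, filterByExpr by group, 4 group means over 12 libraries), and p-values were adjusted by Benjamini-Hochberg over 12821 genes. The shared fit takes its spread from all 4 groups (biological coefficient of variation 3.90%). Standard errors are the log2 fold change over the root of F. CPM use the TMM-scaled library size. The fit was tested on simulated data.

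Named genes were CD44, MGMT and 10 damage, cycle and lineage genes; the 12 largest called rises and falls with at least 5 CPM and no overlap; up to 3 called members per direction and list; and the 5 largest called differences each way. Some genes of this rule are not reported here. Further genes were named after their values had been seen. The comparison, the gene lists and the genes were chosen with earlier results of these data known. Lists are given as counts and medians, with no set test.

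Alternatives were relative log expression scaling, library totals, DESeq2 1.42.0, other filters, the 6 knockdown libraries alone, a replicate block, limma 3.58.1 on log2(FPKM + 1) and log2(FPKM + 0.1), which understate the change of low genes, a GC correction, and each library left out. The last block fit, the gene-span settings and the interferon list without temozolomide library 1 were chosen after seeing the data. Gene positions came from a GRCh38 annotation joined by gene ID (12782 of 12821 genes), and promoters from RefSeq (GRCh38.p14; 10275 genes matched by symbol).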

Additional observations from a re-analysis of the deposited data

Results flagged for a closer look

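The difference of the temozolomide responses, knockdown minus control cells on the log2 scale, was called by edgeR (quasi-likelihood fit, Benjamini-Hochberg adjusted p below 0.05) for 33 of the named genes. A positive value means a higher log2 fold change in knockdown cells. All 33 kept their sign under every alternative that gave a value.

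The calls held most often for IGFBP5 (-0.47), EHF (-0.71), NOS2 (0.91), TGFBI (0.34), KITLG (-0.41), EDIL3 (-0.45), SOD2 (-0.31), PI15 (-1.07), PLEKHG5 (0.59), FILIP1L (-0.63) and SNTB1 (-0.55), each called under at least 18 alternatives. Of these only IGFBP5 and NOS2 were called with limma on log2(FPKM + 1), and the smallest difference under any alternative was -0.09 for SOD2 and -0.41 for PI15. PLEKHG5 did not pass the test in knockdown cells alone. Fewer alternatives called GJA1 (-0.35), KRT14 (-0.35), ANKHD1-EIF4EBP3 (0.50), SEMA3C (-0.23), ADAM10 (-0.27), COL11A1 (-0.34), SLC7A11 (-0.25), HMGCS1 (-0.29) and UPP1 (0.59). HMGCS1 and FASN, both of lipid synthesis, differed in opposite directions.

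The remaining values were RIPOR2 (-0.56), TGFB2 (-0.29), PSMD3 (0.22), C1orf116 (1.03), MSANTD3-TMEFF1 (-1.01), PCDHB9 (-0.87) and GAR1 (-0.67), followed by IFIH1 (-0.54), SAMD9 (-0.48), EIF2AK2 (-0.40), ITGAV (-0.28), FASN (0.27) and ENO1 (0.16). Each of these was called under 8 to 10 alternatives. SAMD9, KRT14 and PCDHB9 have near copies, and MSANTD3-TMEFF1 and ANKHD1-EIF4EBP3 are readthrough names that share exons with their parts. The control DMSO libraries stood 0.07 to 0.22 log2 units higher in GC-rich than in GC-poor genes, and with the GC correction 11 differences above 0 and 24 below 0 were called.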

How the results depend on the processing

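Of 252 named genes called in knockdown cells, 154 were called in the same direction under every alternative that tested them, and 98 lost the call under at least 1. The numbers of genes called higher and lower were 2533 and 1078 with library totals, and DESeq2 called 687 higher. Limma on FPKM called 693 lower with 1 added, 677 with 0.1 added and 664 with no filter. At an adjusted p below 0.01 the counts were 504 and 1074, and at 1.5-fold or more 64 and 238. Leaving out 1 library gave 733 to 952 higher (733 without knockdown DMSO library 2) and 1320 to 1463 lower. The fit with library totals differed from the main fit only in its scaling. Why the counts moved was not tested.

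Differences of responses, above and below 0, numbered 130 and 243 with DESeq2, 187 and 359 with no filter, 11 and 24 with GC correction, 4 and 9 at 0.01, and 6 and 9 at 1.5-fold. On FPKM they numbered 1 and 2 with 1 added, and 0 and 0 both with 0.1 added and with no filter. Without 1 library they ran from 5 (without control DMSO 1) to 210 (without control temozolomide 1) above 0, and from 13 (without control temozolomide 2) to 212 (without knockdown temozolomide 3) below 0. The cause was not tested.

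The labels give both groups replicate numbers 1 to 3, but deviations of same-numbered libraries correlated at 0.0176, 0.0156 and -0.0419, so the numbers were not taken as pairs. With a replicate block 1222 genes rose and 1750 fell (1250 and 1819 in a fit to the 6 knockdown libraries), and the difference was called for 103 genes above and 119 below 0.

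Genes near 0 that were not called changed sign under some settings, as log2 fold changes. MDM2 was at -0.0223 (without DMSO library 2) and -0.0027 (without temozolomide library 3). GDF15 was at -0.0077 (relative log expression scaling), -0.0112 (DESeq2), -0.0045 (no filter), -0.0066 (a replicate block), -0.038 (GC correction), -0.0107 (a block in the 6 knockdown libraries), -0.0741 (without DMSO library 3) and -0.1041 (without temozolomide library 1). CHEK1 was at -0.0065 (relative log expression scaling), -0.0067 (DESeq2), -0.0034 (no filter), -0.0171 (without DMSO library 2) and -0.0045 (without temozolomide library 3). MKI67 was at -0.0154 (without DMSO library 1). PLEKHG5 was at 0.0296 (library totals), 0.0978 (limma on log2(FPKM + 1)), 0.1054 (limma on log2(FPKM + 0.1)), 0.0978 (limma on FPKM with no filter) and 0.0071 (without DMSO library 3). With 1 library left out the log2 fold changes ran over -0.0223 to 0.0353 (MDM2), -0.1041 to 0.0776 (GDF15), -0.0171 to 0.0133 (CHEK1), -0.0154 to 0.0327 (MKI67) and -0.083 to 0.0071 (PLEKHG5). Their causes were not tested. At 13506946 to 20208663 counts per library, the limit that a count of 0 allows, 3 counts, was 0.143 to 0.215 CPM, and levels under it were not told from 0.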

Other observations

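Protocadherins, serpins, semaphorins and S100 proteins, families looked at after their values had been seen, gave the following counts, beside 9.05% higher and 13.2% lower over all genes in knockdown cells and 11.7% higher and 15.8% lower in control cells. Of 42 protocadherins 13 fell and 1 rose in knockdown cells (6 and 1 on FPKM), against 8 lower and 1 higher in control cells. Of 12 serpins 6 fell and 1 rose, with a median log2 fold change of -0.45. Of 17 semaphorins 5 fell and 1 rose, with a median of -0.05, and on FPKM 3 fell. Of 9 S100 proteins 4 fell and 0 rose, with a median of -0.01. Of 454 zinc finger genes with ZNF symbols 29 rose and 17 fell, with a median of 0.07, and both counts are smaller shares than over all genes. The counts with library totals were 85 and 11. In control cells 78 of these zinc finger genes rose and 18 fell. There 7 serpins fell and 1 rose, 6 semaphorins fell and 1 rose, and 5 S100 proteins fell and 0 rose.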
